A study of Mus musculus with 14 samples.

Results

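Insulin and insulin-like growth factor (IGF) receptor signalling was examined through 9 of the 15099 genes that the array named singly. They were measured in MIN6, an insulin-secreting cell line of mouse beta-cell origin. The genes are Igf1, Insr, Igf1r, Irs1, Irs2, Pik3r1, Pik3ca, Akt1 and Akt2, and every array probe whose only gene symbol is one of them was taken, which gave 12 of the 23232 probes in the deposited table. Igf1r was represented by 3 probes, Pik3ca by 2 and each other gene by 1. All 12 had values on every array.

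RNA of 4 stably selected lines was compared with control RNA on 14 two-colour arrays, to ask which transcripts differ when Sirt1, an NAD-dependent protein deacetylase, is raised or lowered. The overexpressing lines Sir2OE2 (4 arrays) and Sir2OE1 (3 arrays) carried mouse Sirt1 in the pBabe retrovirus, and each was hybridised against pooled RNA of Neo1 and Neo2, lines infected with the empty pBabe-neo virus. The knockdown lines Sir2KD2 (4 arrays) and Sir2KD1 (3 arrays) were made with mU6pro vectors for small interfering RNAs against Sirt1 plus a neomycin resistance plasmid, and each was hybridised against mU6pro, a line made with the empty vector. G418 was used at 280 µg/ml to select the overexpressing lines and at 400 µg/ml to select the knockdown lines. All lines came from MIN6 cells at passage 24, and all were held at 5 mM glucose for the 4 days up to RNA isolation. The lines of a kind were established independently but share a control RNA, so what holds for a line may be a property of that line. The labels do not describe the slides of a line as separate cultures, so a p-value reflects array-to-array spread that may be technical, and the spread of the control lines does not enter. In bulk RNA a difference in cell number of a type and a difference in RNA per cell cannot be told apart.

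Insulin and IGF-1 bind related receptor tyrosine kinases, encoded by Insr and Igf1r, which phosphorylate the docking proteins IRS1 and IRS2. Phosphorylated IRS proteins recruit phosphatidylinositol 3-kinase (PI3-kinase), whose lipid product brings AKT kinases to the membrane, where they act on targets such as the forkhead transcription factor FOXO1 and the kinase GSK3. In beta cells this pathway is known for its part in growth, survival and the secretory response, and IRS2 for maintaining beta-cell mass.

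Each value is a log2 ratio of the channels, so no level of any gene is known and levels cannot be compared between genes. The sources used here do not say which channel stands on top. Channel 2 was assumed to stand over channel 1, and the sign was turned on arrays that held the line in channel 1. Plus and minus below are the sides of this turned ratio, and either side could be the higher one in the line. Reversing the overall sign would reverse every line at once. Comparing sides between the kinds also assumes that the ratio runs the same way in both. The turn rests on a comparison of terms over all 23230 tested probes of the values as deposited. If the values are ratios of channels, differences between the lines of a kind lie in the line-by-channel term, which gave 57 calls in the overexpressing kind and 175 in the knockdown kind. If they were line over control already, the differences lie in the line term, which gave 1 call in the overexpressing kind and 71 in the knockdown kind. At an unadjusted p under 0.05 the order held in the knockdown kind (2921 against 2392 probes) but not in the overexpressing kind (1748 against 1789), so the turn is an assumption. The Sirt1 probe did not settle the direction either. Its turned log2 ratio was -0.33 ± 0.10 in Sir2OE2, 0.08 ± 0.12 in Sir2OE1, 0.12 ± 0.10 in Sir2KD2 and -0.10 ± 0.12 in Sir2KD1 (limma estimate ± SE), with adjusted p-values of 0.131, 0.933, 0.651 and 0.772.

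The sequence before the transcription start is shown for Igf1r, the only member gene with a called probe, and for the members whose promoter held a forkhead word, the kind of DNA word that FOXO proteins bind. RefSeq windows on GRCm38.p6 were found for 8 of the 9 genes, with Insr not analysed here, and gave 13 windows of 300 bases. GTAAACA and CAAAACA were searched on both strands and occurred in 3.65% and 6.28% of all 32851 windows. Among the member windows GTAAACA was in 1, an Akt1 window, and CAAAACA in 2, those of Irs1 and Irs2. The Igf1r window held neither word, and its 48 CpG dinucleotides exceeded those of 98.8% of all windows, whose median was 7. Capitals mark CpG in Igf1r, whose 250 upstream bases hold 42, and the forkhead word, read on the gene's strand, in the others. A match is a description and not a binding site. Each sequence runs 5′ to 3′ on the gene's strand.
Igf1r, chr7:67952007-67952256, plus strand: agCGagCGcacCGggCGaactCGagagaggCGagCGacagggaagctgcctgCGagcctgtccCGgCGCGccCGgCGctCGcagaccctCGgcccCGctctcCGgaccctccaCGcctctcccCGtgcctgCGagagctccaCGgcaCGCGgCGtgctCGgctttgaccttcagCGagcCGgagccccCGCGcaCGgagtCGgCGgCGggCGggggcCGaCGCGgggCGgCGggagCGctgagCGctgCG
Irs1, word 111 bases before the start, chr1:82291518-82291576, minus strand: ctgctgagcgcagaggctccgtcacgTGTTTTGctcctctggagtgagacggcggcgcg
Irs1, word 32 bases before the start, chr1:82291440-82291497, minus strand: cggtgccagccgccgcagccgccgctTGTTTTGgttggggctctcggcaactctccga
Irs2, word 37 bases before the start, chr8:11008934-11008992, minus strand: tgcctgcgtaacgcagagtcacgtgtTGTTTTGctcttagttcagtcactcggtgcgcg
Akt1, word 161 bases before the start of 1 of its 2 windows, chr12:112675013-112675071, minus strand: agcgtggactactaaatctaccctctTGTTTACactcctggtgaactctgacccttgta

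Igf1r stood on the minus side in Sir2OE1 on all 3 arrays and with all 3 of its probes, and 2 of those probes were called. No other member probe was called in that line, and no member probe was called in Sir2OE2, Sir2KD2 or Sir2KD1. A probe was called at an adjusted p under 0.05 in limma's moderated test of the line's mean ratio against 0, adjusted over all tested probes. Calls made up 2 of 12 member probes in Sir2OE1, where 1.06% of all tested probes were called. The 0 calls in the other lines stand beside 2.81% of all tested probes in Sir2OE2, 1.34% in Sir2KD2 and 3.59% in Sir2KD1. At an unadjusted p under 0.05 the member probes numbered 2 in Sir2OE2, 3 in Sir2OE1, 0 in Sir2KD2 and 3 in Sir2KD1, against 13.2%, 9.61%, 13.4% and 16.8% of all probes. The member median was -0.04 in Sir2OE2, -0.27 in Sir2OE1, 0.08 in Sir2KD2 and 0.28 in Sir2KD1. Over all probes these medians lay between -0.00 and 0.02.

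**Figure D1:**
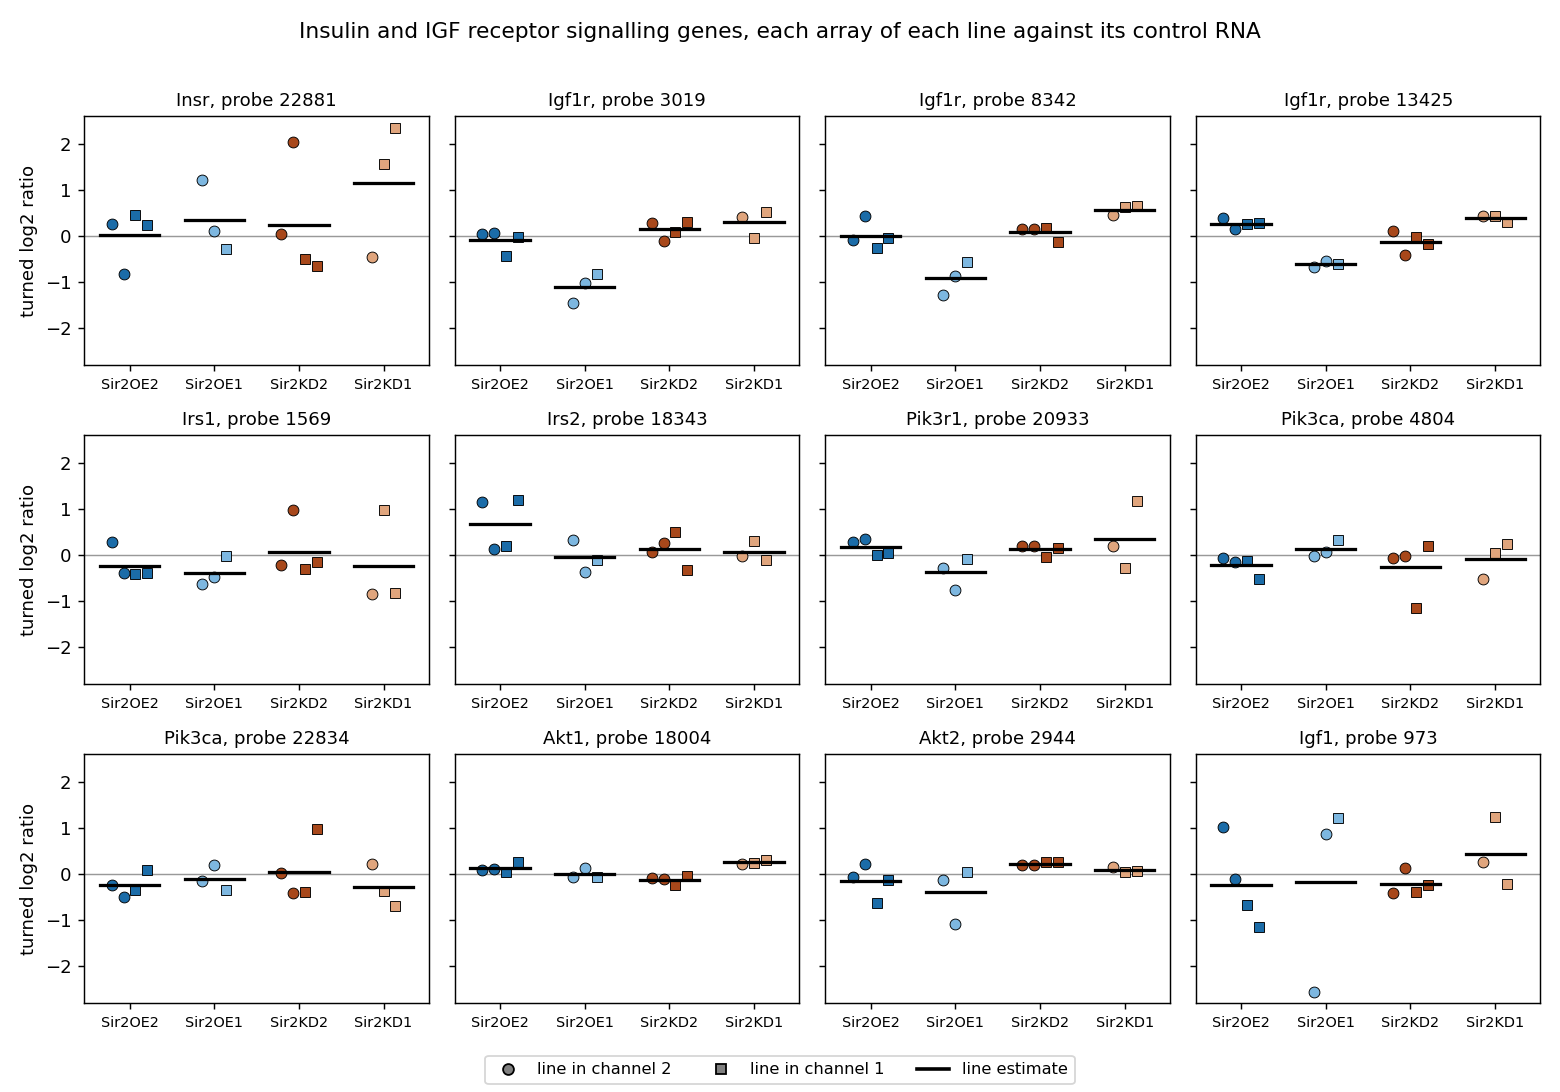
Turned log2 ratio (y axis, after removal of the channel term of each kind) of each of the 12 member probes on each of the 14 arrays, by line. Circles are arrays with the line in channel 2, squares arrays with the line in channel 1, and the black bar is the line estimate. The 3 Sir2OE1 arrays lie below 0 for all 3 Igf1r probes, while Insr and Igf1 scatter widely and Akt1 hardly at all.

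The receptor of IGF-1 is encoded by Igf1r. Probe 3019 gave channel-adjusted log2 ratios of -1.46, -1.03 and -0.82 in Sir2OE1, against values from -0.44 to 0.06 in Sir2OE2, from -0.11 to 0.30 in Sir2KD2 and from -0.04 to 0.53 in Sir2KD1. Every Sir2OE1 array lay below every array of the other 3 lines. How many of all probes part lines in this way was not counted, here or below. The Sir2OE1 estimate (here and below, limma estimate ± SE) was -1.10 ± 0.18 (95% interval -1.50 to -0.71, a 2.15-fold difference from the control RNA, adjusted p = 0.0154).

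Probe 8342 gave -1.27, -0.87 and -0.57 in Sir2OE1, with an estimate of -0.90 ± 0.17 (1.87-fold, adjusted p = 0.0363). Its Sir2OE2 arrays read -0.08, 0.43, -0.26 and -0.05, around an estimate of 0.01 ± 0.15. The Sir2KD2 arrays read 0.14, 0.16, 0.18 and -0.14. In Sir2KD1 all 3 arrays were on the plus side, at 0.44, 0.62 and 0.65, but the estimate of 0.57 ± 0.17 was not called (adjusted p = 0.109). Again no Sir2OE1 array overlapped any array of another line, if the ratio runs the same way in both kinds. With the knockdown kind reversed, slide 3 of Sir2OE1 would fall among the Sir2KD1 arrays.

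Probe 13425 had the narrowest spread of the 3, with a residual SD of 0.160 against a median of 0.386 over all probes. It read -0.68, -0.55 and -0.61 in Sir2OE1, and the estimate of -0.61 ± 0.13 was not called (adjusted p = 0.0547). In Sir2OE2 all 4 arrays were on the opposite side, from 0.14 to 0.39, with an estimate of 0.26 ± 0.11 that was not called (adjusted p = 0.326). The estimate was -0.13 ± 0.11 in Sir2KD2 and 0.39 ± 0.13 in Sir2KD1 (adjusted p = 0.661 and 0.145). The 3 probes thus shared the minus side in Sir2OE1 and the plus side in Sir2KD1. Over the 14 arrays, which they share, the pairs of Igf1r probes correlated with r of 0.896, 0.748 and 0.768.

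The calls for Igf1r in Sir2OE1 were lost without any of that line's 3 arrays. Leaving out slide 1, 2 or 3 of Sir2OE1 gave 0 member calls. Calls over all tested probes in Sir2OE1 fell as well, from 247 to 86, 81 and 47. Leaving out an array of another line gave 1 call, except that 2 were made without slide 2 of Sir2OE2 or slide 2 of Sir2KD2. Over all 14 arrays left out in turn, probe 3019 had estimates from -1.38 to -0.93 (adjusted p from 0.0151 to 0.101) and stayed called in 11 fits. Probe 8342 had estimates from -1.24 to -0.72 and stayed called in 1. With each kind fitted on its own 7 arrays neither probe was called, and 104 of all tested probes were called in Sir2OE1.

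The ratios can also be read before any sign is turned. Undoing the centring gave whole-number percents, known up to a factor common to the 7 arrays of a kind. For probe 13425 the Sir2OE1 percents were 68 and 74 with the line in channel 2, and 166 with the line in channel 1. The Sir2OE2 percents were 142 and 120 with the line in channel 2, and 91 and 90 with the line in channel 1. Exchanging the channels thus moved this probe in opposite directions in the overexpressing lines. That order did not extend to the called probes. In Sir2OE2, probe 3019 gave 65 and 66 with the line in channel 2, and 86 and 64 with the line in channel 1. Probe 8342 gave 112 and 160 against 142 and 123 there, so in Sir2OE2 neither probe separated by channel. On the values as deposited, the line-by-channel term between the overexpressing lines was 0.94, 0.83 and 0.88 for probes 3019, 8342 and 13425 (limma, unadjusted p = 0.00265, 0.00268 and 0.00105). The corresponding line terms were 0.35, 0.42 and 0.00 (unadjusted p = 0.155, 0.0663 and 0.99). None of the 6 passed after adjustment over all probes.

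**Figure D2:**
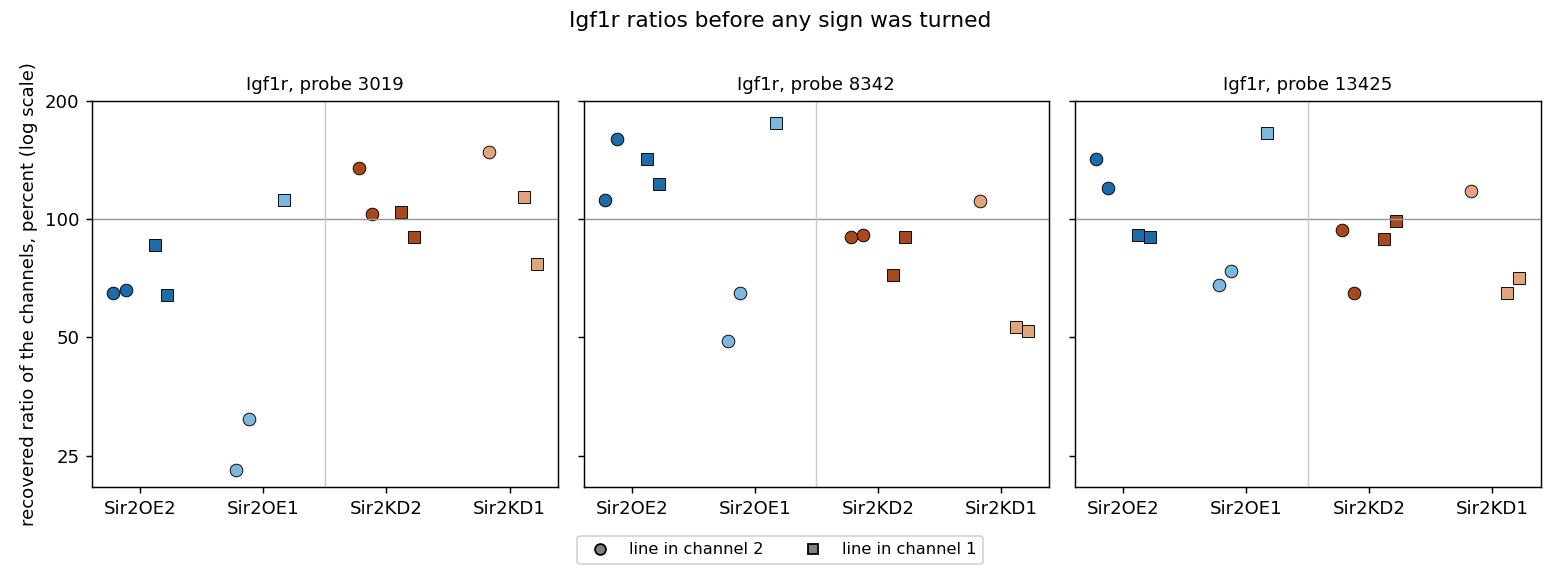
Recovered channel ratio of the 3 Igf1r probes in percent (y axis, log scale) on each array, by line, before any sign was turned. Circles are arrays with the line in channel 2 and squares arrays with the line in channel 1, and the grey vertical line parts the kinds, whose percents have separate unknown factors. For Sir2OE1 the squares stand above the circles for all 3 probes, at 166 against 68 and 74 for probe 13425.

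Insr, the insulin receptor, was not called in any line, and its single probe was among the noisiest on the array. The estimates were 0.02 ± 0.52 in Sir2OE2, 0.34 ± 0.61 in Sir2OE1, 0.23 ± 0.52 in Sir2KD2 and 1.15 ± 0.61 in Sir2KD1 (adjusted p = 0.994, 0.953, 0.903 and 0.395). The Sir2KD1 arrays alone read -0.47, 1.56 and 2.35, and the Sir2KD2 arrays 0.05, 2.03, -0.50 and -0.65. The lines overlapped throughout, and the residual SD of 1.17 was higher than that of 97.4% of probes. The 95% interval in Sir2KD1 ran from -0.21 to 2.50, which includes 0.

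Igf1, which encodes the ligand IGF-1, was uncalled in every line as well. Its residual SD of 1.25 exceeded that of 98.2% of probes. The Sir2OE1 arrays read -2.56, 0.86 and 1.20, and the Sir2OE2 arrays 1.01, -0.11, -0.68 and -1.16. The Sir2KD2 arrays read -0.41, 0.13, -0.39 and -0.23, and the Sir2KD1 arrays 0.26, 1.24 and -0.21. The estimates lay between -0.23 in Sir2OE2 and 0.43 in Sir2KD1, with 95% intervals at least 1.22 wide on each side.

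The docking proteins were not called. Irs2 read 1.15, 0.13, 0.19 and 1.19 in Sir2OE2, all on the plus side, which gave 0.67 ± 0.22 (95% interval 0.18 to 1.15, unadjusted p = 0.0116, adjusted p = 0.186). Its values fell into a high and a low pair that did not follow the channel. The other lines were centred near 0 for Irs2, at -0.05 ± 0.26 in Sir2OE1, 0.12 ± 0.22 in Sir2KD2 and 0.06 ± 0.26 in Sir2KD1. Irs1 read -0.64, -0.47 and -0.03 in Sir2OE1, with an estimate of -0.38 ± 0.37. In Sir2OE2 it read 0.28, -0.40, -0.42 and -0.40 (-0.23 ± 0.31). A single array stood far above the rest in each knockdown line, at 0.97 in Sir2KD2 and 0.98 in Sir2KD1, where the estimates were 0.07 ± 0.31 and -0.23 ± 0.37.

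PI3-kinase joins a regulatory subunit, p85 alpha from Pik3r1, to a catalytic subunit, p110 alpha from Pik3ca. Pik3r1 was on the minus side on all 3 Sir2OE1 arrays, at -0.28, -0.76 and -0.08, and on the plus side on all 4 Sir2OE2 arrays, from 0.00 to 0.35. The difference of Sir2OE2 minus Sir2OE1 was 0.54 ± 0.32 and was not called (adjusted p = 0.818). In Sir2KD2 the estimate was 0.13 ± 0.20, and in Sir2KD1 0.36 ± 0.24, where the arrays read 0.20, -0.29 and 1.16. The 2 Pik3ca probes were nearly unrelated over the 14 arrays (r = 0.0506). Probe 4804 was estimated at -0.22, 0.12, -0.26 and -0.08 in Sir2OE2, Sir2OE1, Sir2KD2 and Sir2KD1, and probe 22834 at -0.25, -0.10, 0.05 and -0.28. The probes were on the same side in Sir2OE2 and Sir2KD1 only, and none of the 8 estimates was called.

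Akt1, a serine/threonine kinase at the centre of the pathway, was the most precisely measured member. Its residual SD of 0.0975 was lower than that of all but 0.676% of probes. The Sir2KD1 arrays read 0.22, 0.24 and 0.30, and the Sir2KD2 arrays -0.10, -0.11, -0.24 and -0.04, so the knockdown lines did not overlap. In Sir2OE2 the arrays read 0.08, 0.11, 0.04 and 0.26, and in Sir2OE1 -0.07, 0.12 and -0.06. The largest estimate, 0.25 ± 0.11 in Sir2KD1, was not called (adjusted p = 0.282). The 95% intervals of all 4 lines lay within -0.33 and 0.49 on the log2 scale.

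Akt2, the isoform best known for insulin action on glucose uptake, read 0.19, 0.19, 0.26 and 0.26 in Sir2KD2, all on the plus side, with an estimate of 0.23 ± 0.18 (adjusted p = 0.657). The Sir2OE1 arrays read -0.14, -1.09 and 0.05 (-0.40 ± 0.22, adjusted p = 0.645), slide 2 being the lowest. The Sir2OE2 estimate was -0.15 ± 0.18 and the Sir2KD1 estimate 0.09 ± 0.22. The SE of every line uses a spread pooled over all 14 arrays, including this wide Sir2OE1 set.

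**Figure D3:**
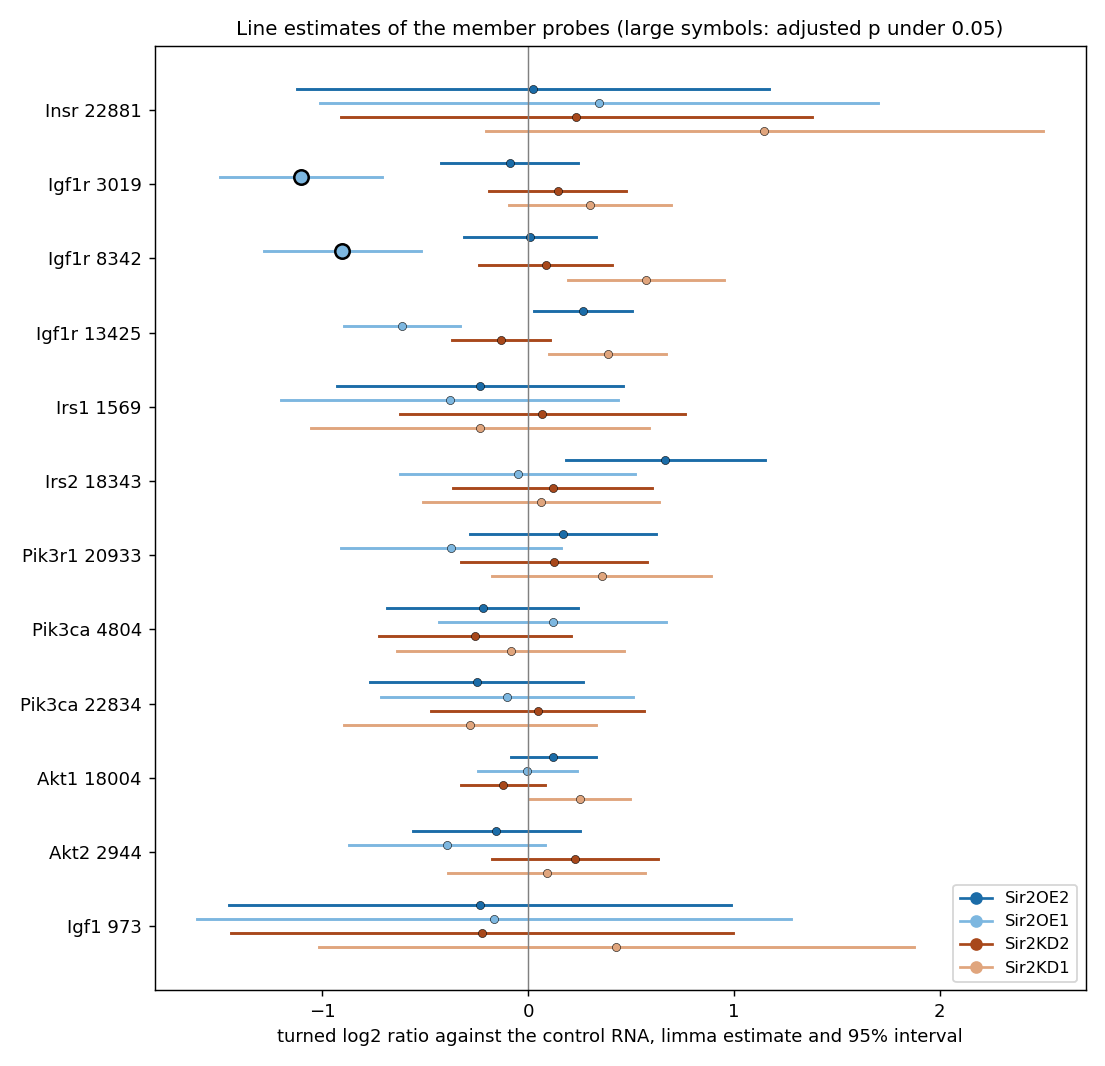
limma estimates (points) and 95% intervals (bars) of the turned log2 ratio (x axis) of the 12 member probes in the 4 lines. Large symbols are called. Igf1r probes 3019 and 8342 in Sir2OE1, at -1.10 and -0.90, are the only called estimates, and the Insr and Igf1 intervals are the widest.

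The members were then compared between the lines of a kind, which share a control RNA. No member probe was called for Sir2OE2 minus Sir2OE1, where 0.323% of all probes were, or for Sir2KD2 minus Sir2KD1, where 0.689% were. The leading member differences between the overexpressing lines were those of Igf1r, at 1.01 ± 0.23, 0.91 ± 0.23 and 0.88 ± 0.17 for probes 3019, 8342 and 13425 (adjusted p = 0.150, 0.188 and 0.0699). The minus side of Igf1r in Sir2OE1 was thus not shown to differ from Sir2OE2 at the threshold. The arrays of these lines did not overlap for any Igf1r probe. How many of all probes part the lines in this way was not counted, so this adds no support. Between the knockdown lines the difference was -0.16 ± 0.23, -0.49 ± 0.23 and -0.52 ± 0.17 for the same probes (adjusted p = 0.857, 0.438 and 0.235), and -0.37 ± 0.14 for Akt1 (adjusted p = 0.329). Unadjusted, 3 member probes of Sir2OE2 minus Sir2OE1 and 2 of Sir2KD2 minus Sir2KD1 had p under 0.05, against 7.48% and 11.8% of all probes.

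Setting the overexpressing lines against the knockdown lines called 2 member probes, both of Igf1r, where 2.66% of all probes were called. The mean overexpressing ratio minus the mean knockdown ratio was -0.82 ± 0.16 for probe 3019 and -0.78 ± 0.16 for probe 8342 (adjusted p = 0.0258 and 0.0285). It was -0.30 ± 0.12 for probe 13425 (adjusted p = 0.269). Akt2 followed at -0.43 ± 0.20 (adjusted p = 0.36). This comparison assumes that the ratio runs the same way in both kinds, and with the other channel on top in the knockdown kind 0 member probes were called. Within the overexpressing kind the called probes stood at -0.09 and 0.01 in Sir2OE2, against -1.10 and -0.90 in Sir2OE1. No member probe was called without slide 3 or 4 of Sir2OE2 or slide 1 or 2 of Sir2OE1. The same held without slide 1 of Sir2KD2, or slide 1 or 3 of Sir2KD1. Only 1 was called without slide 1 of Sir2OE2, slide 2, 3 or 4 of Sir2KD2, or slide 2 of Sir2KD1. Calls over all probes for this comparison fell as well, from 617 to between 421 and 538 without 1 array.

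Other genes of the pathway were taken from a list of 104, of which 82 were measured by 94 probes. In Sir2OE2 the list had 2 calls on the plus side against 1 on the minus side, or 3.19% of the list where 2.81% of all probes were called. In Sir2OE1 the counts were 1 and 1 (2.13%, against 1.06% of all probes), in Sir2KD2 1 and 1 (2.13%, against 1.34%), and in Sir2KD1 3 and 4 (7.45%, against 3.59%). The list medians were -0.00, -0.08, -0.05 and -0.04 in that order of lines. All 13 probes of the mTOR branch and all 7 of the Ras and ERK branch were uncalled in every line. So were all 6 of the other PI3-kinase subunits and all 4 of the lipid and Akt phosphatases. At these shares of all probes, that sets none of these small groups apart. For overexpressing minus knockdown lines 6.38% of the list was called, where 2.66% of all probes were. This included 1 PI3-kinase subunit probe, on the minus side. That comparison assumes that the ratio runs the same way in both kinds. As its gene had no call in a line, this probe was not named or refitted under the alternatives.

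Among the IGF binding proteins, secreted carriers that hold IGFs away from their receptor, 2 of 8 genes had a call. Igfbp4 was on the plus side in Sir2OE2, at 2.66 ± 0.21 (adjusted p = 0.000111), and on the minus side in Sir2KD1, at -1.39 ± 0.25 (adjusted p = 0.0138). It was 0.04 ± 0.25 in Sir2OE1 and 0.45 ± 0.21 in Sir2KD2, neither called. The lines of each kind therefore differed in Igfbp4, by 2.62 ± 0.33 for Sir2OE2 minus Sir2OE1 (adjusted p = 0.00916) and by 1.84 ± 0.33 for Sir2KD2 minus Sir2KD1 (adjusted p = 0.0394). Both calls rest on the turn, since on values not turned the differences were 0.50 and -0.36 (adjusted p = 0.951 and 0.999). With each kind fitted on its own arrays, the overexpressing lines still differed (adjusted p = 0.0466) and the knockdown lines did not pass (adjusted p = 0.252). The call between the overexpressing lines was lost without slide 1 or 2 of Sir2OE2 or slide 2 or 3 of Sir2OE1. The call between the knockdown lines held in only 4 of 14 fits without 1 array, those without slide 3 or 4 of Sir2OE2, slide 2 of Sir2KD2 or slide 3 of Sir2KD1. Igfbp7 was on the minus side in all 4 lines, at -0.84 ± 0.15 in Sir2OE2, -0.74 ± 0.18 in Sir2OE1, -1.03 ± 0.15 in Sir2KD2 and -1.32 ± 0.18 in Sir2KD1. It was called in all but Sir2OE1 (adjusted p = 0.013, 0.107, 0.00807 and 0.00258). A side shared by the kinds assumes that the ratio runs the same way in both. With the other channel on top in the knockdown kind, the kinds differed in Igfbp7 by -1.96 (adjusted p = 7.39e-05).

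Insrr, the orphan receptor of the insulin receptor family, was called on the minus side in Sir2OE1 (-0.85 ± 0.16, adjusted p = 0.0303) and on the plus side in Sir2KD1 (0.85 ± 0.16, adjusted p = 0.0148). It was -0.14 ± 0.13 in Sir2OE2 and 0.24 ± 0.13 in Sir2KD2. These are the sides that the Igf1r estimates also took in Sir2OE1 and Sir2KD1. For overexpressing minus knockdown lines Insrr gave -1.04 ± 0.14 (adjusted p = 0.0032). With the other channel on top in the knockdown kind this difference was 0.05 (adjusted p = 0.899).

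Adaptors were called in Sir2OE2 and Sir2KD1. Gab1, a docking protein that also binds PI3-kinase, was 0.76 ± 0.15 in Sir2OE2 (adjusted p = 0.0208), 0.36 ± 0.18 in Sir2OE1, 0.59 ± 0.15 in Sir2KD2 (both uncalled) and -1.43 ± 0.18 in Sir2KD1 (adjusted p = 0.00155). The knockdown lines differed in Gab1 by 2.02 ± 0.23 (Sir2KD2 minus Sir2KD1, adjusted p = 0.00342). This call was lost with each kind fitted on its own arrays (adjusted p = 0.107), and on values not turned the difference was -0.60 (adjusted p = 0.909). In Sir2KD1, Shc1, which links receptors to Ras, was 0.58 ± 0.12 (adjusted p = 0.0296). Crkl, another adaptor, was 0.88 ± 0.20 there by probe 16551 (adjusted p = 0.0382) but -0.21 ± 0.14 by probe 18802, which was not called.

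Downstream of the Akt kinases, Foxo1 was -0.60 ± 0.13 in Sir2KD1 (adjusted p = 0.0342) and between 0.01 and 0.05 in the other 3 lines. Gsk3b, a kinase that AKT inhibits, was called in Sir2KD2 by probe 23155, at 1.31 ± 0.23 (adjusted p = 0.0225). Its probes 17830 and 21387 read 0.26 ± 0.13 and 0.67 ± 0.15 in that line and were not called, and all 3 probes were on the plus side in both knockdown lines. Trib3, a pseudokinase reported to bind AKT, was 0.86 ± 0.17 in Sir2OE1 (adjusted p = 0.0429), against -0.20, -0.30 and -0.23 in Sir2OE2, Sir2KD2 and Sir2KD1. Without 1 array the pathway calls ranged from 1 to 3 in Sir2OE2, 0 to 1 in Sir2OE1, 0 to 3 in Sir2KD2 and 1 to 8 in Sir2KD1. The low ends were 1 without slide 1, 2 or 3 of Sir2OE2, 0 without any slide of Sir2OE1, slide 2 or 3 of Sir2OE2 or slide 3 or 4 of Sir2KD2, 0 without slide 4 of Sir2KD2, and 1 without slide 1 of Sir2KD1. Igfbp4 in Sir2OE2 and Gab1 in Sir2KD1 stayed called in all 14 such fits. Trib3 in Sir2OE1 stayed called in 2 of 14, and Insrr in Sir2OE1 and Foxo1 and Crkl in Sir2KD1 in 4 each, while the other pathway calls stayed in 10 to 13.

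**Figure D4:**
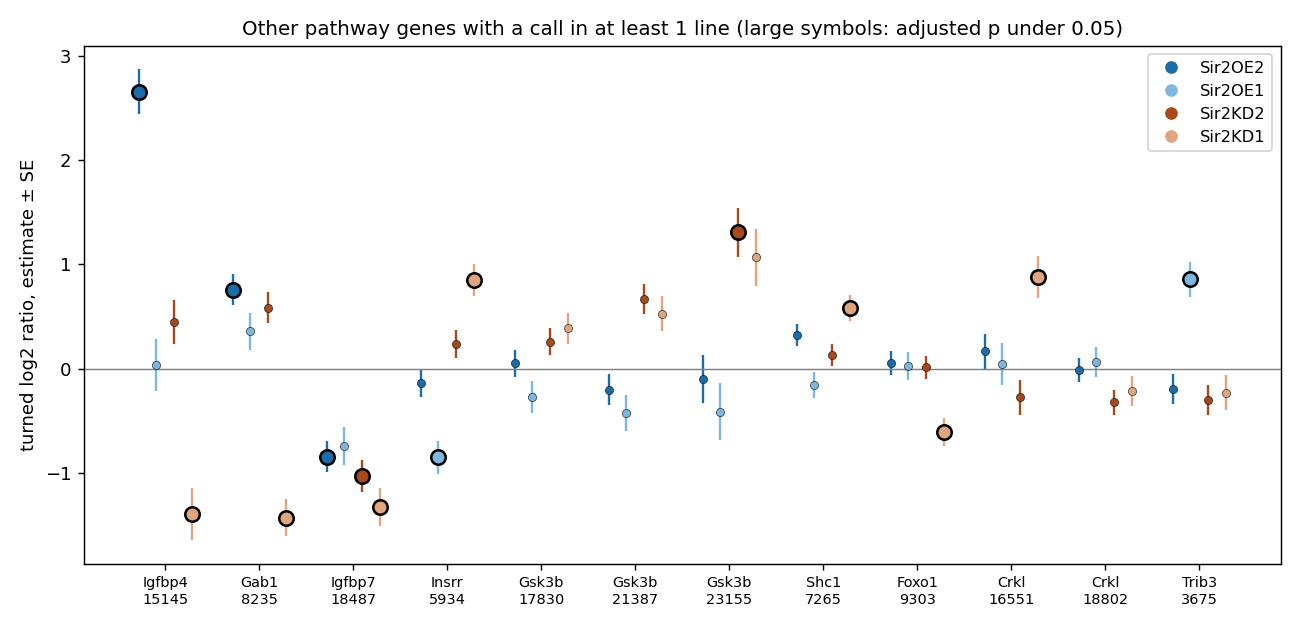
Turned log2 ratio (y axis, limma estimate ± SE) of every probe of the 9 listed pathway genes that had a call in at least 1 line, by line. Large symbols are called. Igfbp4 reaches 2.66 in Sir2OE2 and -1.39 in Sir2KD1, and Igfbp7 lies below 0 in all 4 lines. Igf1r's relative Insrr takes opposite sides in Sir2OE1 and Sir2KD1. Comparing sides between the kinds assumes that the ratio runs the same way in both.

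The probes most like the called Igf1r probes over the 14 arrays were found by Pearson's r of the channel-adjusted ratios. For probe 3019 they were Eif2s3x-ps1 (r = 0.918), Bnip3 (r = 0.909) and Cenpq (r = 0.907). Bnip3 was itself called on the minus side in Sir2OE1, at -1.15 (adjusted p = 0.00229). For probe 8342 they were Bpgm (r = 0.957), Mdfic (r = 0.930) and Ppil2 (r = 0.922). Mdfic was called on the plus side in Sir2OE2, Sir2KD2 and Sir2KD1, at 1.08, 1.14 and 1.32, and was 0.06 in Sir2OE1. These correlations describe the highest of many probes over arrays that share their libraries.

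Cell-type markers were read as ratios too, so the beta-cell identity of the lines could not be checked by level. Of 37 marker genes 30 were measured by 31 probes. Beta-cell markers had 3, 2, 3 and 4 called probes of 9 in Sir2OE2, Sir2OE1, Sir2KD2 and Sir2KD1, with values from -2.08 (Slc2a2, the glucose transporter, in Sir2KD1) to 2.86 (Ucn3, urocortin 3, by probe 19772 in Sir2KD1). The other Ucn3 probe, 4310, was on the minus side there, at -0.95, and was not called (adjusted p = 0.0628). Other islet endocrine markers had 0 calls of 6, and mesenchymal or immune markers 0 of 8, in every line. Exocrine or duct markers had 1, 1, 1 and 2 calls of 8. The markers called in Sir2OE1, where Igf1r was called, were Slc2a2 at -0.90 (adjusted p = 0.0254), Pcsk1, a prohormone convertase, at 0.78 (adjusted p = 0.0207), and Krt19, a keratin of duct cells, at -0.58 (adjusted p = 0.0349). All 3 were also called in Sir2OE2, where Igf1r was uncalled, at -1.50, 0.78 and -0.69. Slc2a2 was called in Sir2KD2 and Sir2KD1 too, at -0.89 and -2.08, and Pcsk1 in Sir2KD2, at 0.76. Pcsk1 in Sir2KD1 and Krt19 in both knockdown lines were uncalled. The 8 exocrine or duct probes ranged from -0.58 to 0.53 in Sir2OE1 with a median of -0.10, so as a list they did not move one way. The part of any of these genes in the Igf1r result was not tested.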

How the data were processed

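Per the labels, RNA of each line and of its control was hybridised together, with the channels exchanged between slides. The authors deposited a log2 ratio per probe and array. The sources used here do not give the scanner software, background correction, normalization or direction. The deposited log2 ratios sum to 0 per probe over 6 of the 7 arrays of a kind (largest deviation 5.6e-08), all but Sir2OE1 slide 2 and Sir2KD1 slide 2, and undoing this centring gave whole percents for 100% of complete probes at a relative tolerance of 1e-05. The precision is limited by the number of arrays, since no intensities were used here. The SD per array ran from 0.472 to 0.728 and the median from -0.0347 to 0.0165.

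Of 23232 probes, 16885 had 1 symbol in the platform annotation, 143 had several (not named) and 6204 were not listed. Symbols were updated through Entrez identifiers for 16205. The turned ratios entered lmFit and eBayes of limma 3.58.1 (R 4.3.3), with all 14 arrays, line coefficients and a channel term for each kind. Testing required at least 2 arrays with a value in each line, and p-values were adjusted by the Benjamini-Hochberg method at 0.05. Turning was to be used if the line-by-channel term gave more calls than the line term in both kinds, or if the kinds disagreed. Array values given in the text have the channel term removed. On simulated data for Sir2OE1 with 200 changed probes among 23230, the fit called 1.49% of those changed by 0.5 on the log2 scale, 31.3% at 1 and 69.7% at 2, with 5 false calls. The genes and lists were chosen with earlier results of these data known. All member probes are named, as are pathway genes called in at least 1 line and the 3 probes most like each called member probe. A planned protein comparison was not run, as no protein table was used here. Alternatives were the channel term, each kind alone, centring, scaling, robust eBayes, array weights, probe filters, a replicate block, orientation and leaving out each array.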

Additional observations from a re-analysis of the deposited data

Results flagged for a closer look

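Of the 24 sets formed by a member probe and a line with 4 arrays, 5 held an array far from the others by Dixon's criterion. For independent normal values chance gives about 1 in 20. These sets share arrays and hold channel-adjusted values, and the share over all probes was not counted. Lines with 3 arrays were not examined in this way. Insr read -0.83 on slide 2 of Sir2OE2, below the other 3 arrays. Igf1r read -0.44 by probe 3019 on slide 3 of Sir2OE2 and -0.14 by probe 8342 on slide 4 of Sir2KD2. Irs1 read 0.28 on slide 1 of Sir2OE2 and 0.97 on slide 2 of Sir2KD2, each above the other 3 arrays.

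Several genes differed between lines or kinds by a test of the difference itself in limma. For overexpressing minus knockdown lines, Igf1r gave -0.82 and -0.78 by probes 3019 and 8342, Insrr -1.04, Gsk3b -0.91 and -1.44 by probes 21387 and 23155, Gab1 0.98 and Igfbp4 1.82. These values assume that the ratio runs the same way in both kinds. With the other channel on top in the knockdown kind none of these 7 passed, and Insrr and both Gsk3b probes changed sign. Igfbp4 also differed between the lines of each kind, by 2.62 for Sir2OE2 minus Sir2OE1 and by 1.84 for Sir2KD2 minus Sir2KD1. Gab1 differed between the knockdown lines by 2.02 for Sir2KD2 minus Sir2KD1. On values not turned none of these 3 line differences passed, and with each kind fitted on its own arrays only Igfbp4 for Sir2OE2 minus Sir2OE1 did.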

How the results depend on the processing

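Each line's 3 or 4 arrays limit the precision of every call. The simulation, of Sir2OE1 only, recovered 31.3% of log2 differences of 1. Alternatives other than leaving out an array gave 864 member values. Of these 797, mostly uncalled, kept their status, 47 moved, 8 lost a call, 12 gained one and 0 reversed a call. Each Igf1r call above held in 8 of 10. With 1 channel term for both kinds, 3 member probes were called in Sir2OE1 and 1 for Sir2OE2 minus Sir2OE1, and pathway calls were 5 in Sir2OE2, 4 in Sir2OE1 and 5 in Sir2KD2. With no channel term, 2 member probes were called in Sir2KD1 and 3 for Sir2OE2 minus Sir2OE1, and pathway calls were 8 in Sir2OE2, 5 in Sir2OE1, 9 in Sir2KD2 and 11 in Sir2KD1. With each kind fitted on its own arrays, 0 member probes were called in Sir2OE1. Pathway calls were then 0 in Sir2OE1, 0 in Sir2KD2 and 1 in Sir2KD1, where 104, 65 and 219 of all probes were called. With arrays scaled to the same spread, 1 member probe was called for Sir2OE2 minus Sir2OE1, and pathway calls were 6 in Sir2OE2 and 3 in Sir2KD1. With array weights, 1 member probe was called in Sir2OE2 and 1 for Sir2OE2 minus Sir2OE1, and pathway calls were 19 in Sir2OE2 and 3 in Sir2KD1. With the other channel on top in the knockdown kind, 0 member probes were called for overexpressing minus knockdown lines, where 1160 of all probes were. The causes were not tested. Array centring, robust eBayes and both probe filters moved none of these counts by over 1.5 times. On values not turned, 0 of all probes were called for Sir2OE2 minus Sir2OE1 and 89 for Sir2KD2 minus Sir2KD1, so the 0 member calls there show no stability. Igf1r probes 3019, 8342 and 13425 then gave 0.54, 0.58 and 0.18 for Sir2OE2 minus Sir2OE1, and probe 8342 gave 0.25 for Sir2KD2 minus Sir2KD1.

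Differences of the named pathway genes were recomputed in a step chosen after seeing the data. On values not turned, Sir2KD2 minus Sir2KD1 was -0.60 for Gab1 and -0.36 for Igfbp4, and Sir2OE2 minus Sir2OE1 was 0.50 for Igfbp4. With the other channel on top in the knockdown kind, overexpressing minus knockdown lines gave 0.051 for Insrr, 0.29 and 0.93 for Gsk3b probes 21387 and 23155, 0.14 for Gab1 and 0.87 for Igfbp4, none called, while Igfbp7 was called at -1.96 (0.38 and uncalled with the same channel on top). With each kind alone all probes had 23 calls for Sir2OE2 minus Sir2OE1 and 1 for Sir2KD2 minus Sir2KD1. The Igfbp4 difference between the knockdown lines was also lost with arrays scaled to the same spread or with array weights. With the slide number as a replicate block it was lost too, as were Gab1 for both of its differences and Gsk3b probe 21387. The Gsk3b calls were lost without slide 1 of Sir2KD1 and, for probe 21387, slide 3 of Sir2OE1.

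With this replicate block, member calls were 0 in Sir2OE1 and 0 for overexpressing minus knockdown lines, and pathway calls were 0 in Sir2OE2, 0 in Sir2OE1, 0 in Sir2KD2 and 2 in Sir2KD1. All probes had 4, 0 and 6 calls in Sir2OE2, Sir2OE1 and Sir2KD2, so 0 there says little of these genes. The labels do not pair slides across lines. Between lines, mean r was -0.069 over 19 same-numbered pairs (-0.214 over the 6 within a kind) and 0.0242 over 54 others. So no pairing was taken.

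Leaving out each array in turn gave 0 to 2 member calls in Sir2OE1 and 0 to 2 for overexpressing minus knockdown lines, and 0 in the other comparisons. Pathway calls ranged from 1 to 3 in Sir2OE2, 0 to 1 in Sir2OE1, 0 to 3 in Sir2KD2 and 1 to 8 in Sir2KD1. In Sir2OE1 Igf1r probe 3019 stayed called in 11 of 14 fits and probe 8342 in 1. Calls over all tested probes also fell in a line that lost 1 of its arrays. They were 317 to 389 in Sir2OE2, 47 to 86 in Sir2OE1, 149 to 179 in Sir2KD2 and 523 to 547 in Sir2KD1.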
